A study of Mus musculus with 4 samples.

Results

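CD-numbered cell surface antigens are the genes whose mouse symbol is Cd followed by a number and at most 1 letter and 1 digit, such as Cd9, Cd55 or Cd79b. Such symbols were held by 89 genes of the RefSeq table, and 79 of them had a probe on the array, with 109 probes in all, out of 32940 genes and unnamed accessions measured. The remaining 10 symbols (Cd101, Cd1d2, Cd200r2, Cd200r4, Cd209f, Cd209g, Cd300c, Cd40, Cd68 and Cd8b1) had no probe matched by accession. Gene expression had been profiled on 1-colour Agilent arrays in 4 samples of mouse embryonic stem (ES) cells. The comparison was of cells with and without knock-down of FBL, fibrillarin, the nucleolar enzyme that methylates ribosomal RNA. All samples came from the line called Tc-inducible FBL-kd ES, grown on gelatin in medium with leukaemia inhibitory factor (LIF), which the labels give as expressing FBL with tetracycline (Tc) and as FBL knock-down without it. The 2 control samples had 1000 ng/mL Tc and the 2 knock-down samples (FBL-kd) had none, for 2 days. Tc thus differed between the groups along with FBL, and an effect of Tc itself cannot be told apart in these samples. The sources used here do not give whether samples of a group came from separate cultures or whether the line is 1 clone. The p-values then cover the spread among these 4 samples alone, and that spread may be technical.

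CD numbers were given to surface molecules in the order in which sets of antibodies to leukocytes defined them, and not by structure or function. The genes therefore encode unrelated proteins: tetraspanins that organise membrane domains, lipid-anchored regulators of complement, immunoglobulin-family ligands of T cells, sialomucins, lectins and parts of the antigen receptors. Several, such as CD9, CD24 and CD81, are found on many cell types, pluripotent cells included, while others, such as CD3 and CD79, mark lymphocytes.

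A level below is the log2 signal of a probe relative to the 75th percentile of its array. Levels of different probes do not give relative amounts of RNA. They are set against each other only to name the brightest and to sum the signals of markers. A change is the FBL-kd mean minus the control mean on that log2 scale, with its standard error (SE) from limma, a linear model with shared variance estimates, and n = 2 per group throughout. A gene rose or fell where the adjusted p was under 0.05 over all 19338 genes tested, and it was tested where the scanner software called a probe well above background in both samples of either group. Of 41174 probes, an array had from 24495 to 26403 well above background, and its 75th percentile of signal ranged from 501 to 800. The control pair differed more than the FBL-kd pair, the difference within a pair having an SD of 0.51 and 0.32 over the genes tested. The sample FBL-kd 2 was hybridised on another slide, so its slide and scan cannot be told apart from that sample. Fbl itself had levels of 8.63 and 8.12 in the controls and 5.98 and 5.94 in FBL-kd, a fall by 2.42 ± 0.25 (limma adjusted p = 4.18e-04). None of the 10 ES cell markers checked passed in limma, and 2 had a lower level at an unadjusted p under 0.05. Those 2 were Nanog (change −0.83, limma adjusted p = 0.0603) and Zfp42. The changes of the brightest, Dppa5a and Zfp42, were 0.23 and −0.61. Nanog was named after its values were seen.

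Of the 39 CD antigen genes tested, 6 rose in FBL-kd and 0 fell, where 3.89% of all genes tested rose and 2.62% fell. Cd109 rose 10.02-fold, Cd55 3.09-fold, Cd80 2.97-fold, Cd300a and Cd2 2.65-fold each and Cd164l2 1.93-fold. In the same limma fit 7 had a higher and 5 a lower level at an unadjusted p under 0.05. Of all 19338 genes tested, 3874 had such a p in either direction, and every unadjusted count below is to be read beside that share. The median change over the 39 genes was −0.05, beside −0.06 over all genes tested. Both FBL-kd values lay above both control values for 12 of the 39 genes and below them for 8, against 20.6% and 30.6% of all genes tested. For the other 19 the groups overlapped. The 33 genes that did not pass had changes between −0.80 and 0.70, and 25 of the 39 changed by less than 0.5 in either direction. Under normexp background correction 3 CD antigen genes rose (Cd109, Cd55 and Cd80) and Cd79b fell. Within slide 1, which leaves out FBL-kd 2, their changes were 3.30, 1.65, 1.58 and −0.82. Limma gave all genes the same SE there, 0.456, taken from the control pair, and did so without FBL-kd 1 as well. Under normexp all genes had an SE of 0.237. A pass in such a fit is a cut on fold change common to all genes. It does not weigh how the samples of a given gene varied.

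**Figure D1:**
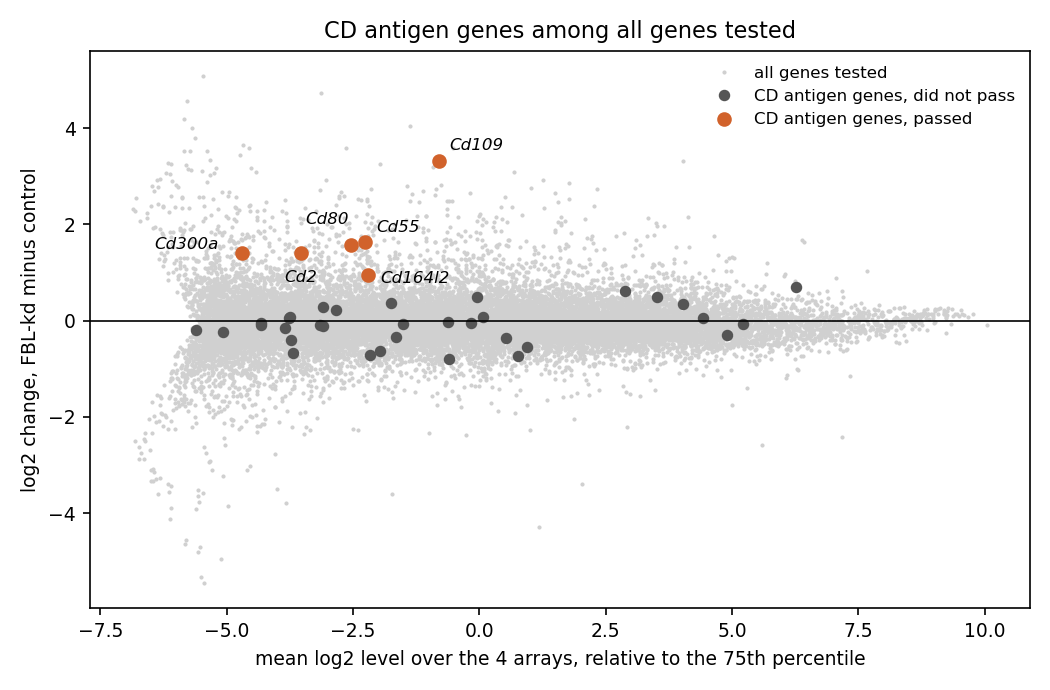
Log2 change (FBL-kd minus control, vertical axis) against the mean log2 level over the 4 arrays (horizontal axis) for the 19338 genes tested (light grey), the 33 CD antigen genes that did not pass (dark grey) and the 6 that did (orange). Cd109 stands highest at 3.33, the other 5 that passed lie between 0.95 and 1.63, and the 33 others lie between −0.80 and 0.70.

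The upstream sequences of Cd55 and Cd80 are shown because these 2 genes passed in all but 1 of the 17 alternative processings and RefSeq (GRCm38.p6) has an entry for each. Each is the 250 bases before the annotated start, 5′ to 3′ on the gene's strand, in lower case with motif matches in capitals. Cd55 lies on the minus strand at chr1:130462745-130462994 and Cd80 on the plus strand at chr16:38458683-38458932.
Cd55: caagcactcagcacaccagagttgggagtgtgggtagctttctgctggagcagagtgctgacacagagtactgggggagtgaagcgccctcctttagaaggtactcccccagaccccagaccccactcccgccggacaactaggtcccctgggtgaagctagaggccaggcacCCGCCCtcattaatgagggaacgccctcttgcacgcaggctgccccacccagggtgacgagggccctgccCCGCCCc
Cd80: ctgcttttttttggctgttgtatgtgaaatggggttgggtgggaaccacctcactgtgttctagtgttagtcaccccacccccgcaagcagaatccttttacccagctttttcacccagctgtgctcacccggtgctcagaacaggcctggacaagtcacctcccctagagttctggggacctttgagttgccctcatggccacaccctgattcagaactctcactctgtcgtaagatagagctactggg

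Both windows, and those of Cd300a and Cd164l2, were searched for 6 motifs, and Cd109 and Cd2 have no entry in the promoter table. The GC box, GGGCGG on either strand, matched 2 times in the Cd55 window, both on the opposite strand, 77 to 72 and 7 to 2 bases before the start. It was absent from the other 3 windows and was held by 32.7% of the 32851 windows of the same length. The TATA box TATAAA (gene strand, 7.59% of windows), the CCAAT box CCAAT (either strand, 33.8%), the E-box CACGTG (6.02%), the C/EBP-ATF response element TGATGCAA (either strand, 0.791%) and the p53 half-site (either strand, 7.13%) matched in 0 of the 4 windows. The matched motifs did not overlap, and these letters say nothing of whether a factor binds. The Cd55 window had a GC content of 64% and 8 CpG dinucleotides, and the Cd80 window 52.8% and 3, where the median window had 52.4% and 6.

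Among regulators of complement and of proteases, 2 of 4 tested genes rose and 0 fell in limma, with 0 lower at an unadjusted p under 0.05. Cd109 encodes a protein of the alpha-2-macroglobulin family, held in the membrane by a lipid anchor, that binds TGF-beta as a coreceptor. Its level was −2.63 in control 1 and −2.28 in control 2, against 0.84 and 0.90 in FBL-kd, and the groups lay far apart beside the differences within them. The change was 3.33 ± 0.24 (limma adjusted p = 1.09e-04), 3.30 within slide 1 and 2.55 under normexp. A further Cd109 probe had −5.68 and −5.10 in the controls and −2.03 and −1.84 in FBL-kd. Its change was 3.46 (limma adjusted p = 1.88e-04 over all probes tested). It was well above background on both FBL-kd arrays and on 1 of 2 control arrays, so it was tested through the group where it is high. The last Cd109 probe was well above background on 1 array only and was not tested.

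Cd55, decay-accelerating factor, is a lipid-anchored protein that breaks up the enzymes that activate complement C3. It had levels of −3.16 and −2.98 in the controls and −1.42 and −1.46 in FBL-kd, so that the FBL-kd samples were close together and both above both controls. The change was 1.63 ± 0.23 (limma adjusted p = 0.00205), 1.65 within slide 1 and 0.89 under normexp, where it still passed (adjusted p = 0.0062). Cd59a and Cd59b encode inhibitors of the membrane attack complex and are similar copies, so their probes may read both. Cd59a had levels of −0.02 and −0.56 in the controls and 0.21 and 0.21 in FBL-kd, a change of 0.50 with a 95% interval from −0.07 to 1.06 that did not pass (limma adjusted p = 0.316). Its other probe changed by 0.46. For Cd59b the change was −0.09 (95% interval −0.61 to 0.43). Cd46, a cofactor for the cleavage of complement by factor I that is found mainly in the testis in mice, was not well above background on any array. Cd55b, the testis form of decay-accelerating factor, was well above background on FBL-kd 2 alone, at −3.20, with −7.80, −8.28 and −8.49 on control 1, control 2 and FBL-kd 1.

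**Figure D2:**
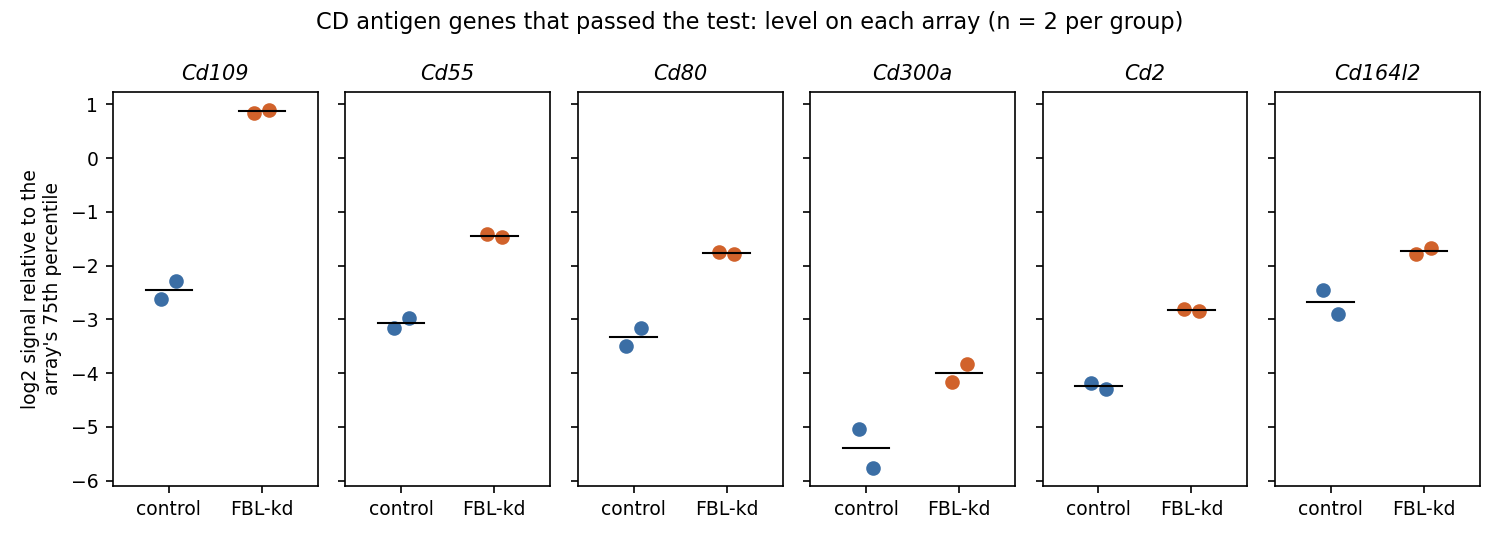
Level of the 6 CD antigen genes that passed, on each array (points; vertical axis, log2 signal relative to the array's 75th percentile), with the group mean as a line and n = 2 per group. Both FBL-kd points lie above both control points for each gene, and the control points of Cd300a lie farthest apart, at −5.04 and −5.76; heights of different genes are not comparable.

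Of the immunoglobulin-family molecules that costimulate or restrain T cells, 1 of 3 tested genes rose and 0 fell in limma, with 0 lower at an unadjusted p under 0.05. Cd80, the B7-1 ligand of CD28 and CTLA-4, had levels of −3.50 and −3.16 in the controls and −1.75 and −1.78 in FBL-kd, without overlap. The change was 1.57 ± 0.24 (limma adjusted p = 0.003), 1.58 within slide 1 and 0.87 under normexp (adjusted p = 0.00798). Cd276, B7-H3, had overlapping groups, with 0.29 and −0.24 in the controls and 0.13 and 0.08 in FBL-kd (change 0.08, 95% interval −0.48 to 0.64). Cd83, a marker of mature dendritic cells, had a change of −0.24. Not well above background on any array were Cd28, Cd86, Cd274, which encodes PD-L1, Cd96, Cd160, Cd226, Cd200r1 and Cd200r3. The receptors CD28 and CTLA-4 and the second ligand CD86 of the CD80 pathway were thus not measured, since Ctla4 was not well above background either. Of 5 tested B7 and CD28 family genes under other symbols none passed in limma, 1 having a higher level at an unadjusted p under 0.05. The brightest 2 of these, Pvr (−0.23) and Icosl (−0.29), did not pass.

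Cd2, an adhesion molecule of T and natural killer cells and the only tested gene of the SLAM and CD2 family, rose. Its levels were −4.18 and −4.29 in the controls and −2.81 and −2.85 in FBL-kd, a change of 1.40 ± 0.23 (limma adjusted p = 0.00441). The change was 1.42 within slide 1, 1.38 without FBL-kd 1 and 0.68 under normexp, where it did not pass (adjusted p = 0.0687). Cd48, Cd84 and Cd244a, of the same family, were not well above background on any array.

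Cd300a, an inhibitory receptor of myeloid cells, rose at one probe and not at the other. At the probe with the higher mean level its values were −5.04 and −5.76 in the controls and −4.16 and −3.83 in FBL-kd, with a change of 1.41 ± 0.29 (limma adjusted p = 0.0155). At the other probe, which was also well above background on all arrays, they were −4.54 and −5.25 in the controls and −5.24 and −4.66 in FBL-kd, a change of −0.05 with overlapping groups. With the mean of both probes the change was 0.68 and did not pass (adjusted p = 0.232). It was 1.24 within slide 1 and 0.50 under normexp (adjusted p = 0.269). The rise of Cd300a therefore rests on 1 of its 2 probes.

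Cd164l2, a gene similar in sequence to the sialomucin gene Cd164, had levels of −2.46 and −2.90 in the controls and −1.78 and −1.67 in FBL-kd. It rose by 0.95 ± 0.25, close to the threshold (limma adjusted p = 0.0467). The call ended under normexp (change 0.49, adjusted p = 0.277), with quantile normalization (0.0602) and with the 75th percentile over spots instead of probes (0.05004). The change was 0.90 within slide 1 and 1.01 without FBL-kd 1. Cd164 itself, with 4.17 and 4.64 in the controls and 4.39 and 4.504 in FBL-kd, had a change of 0.04 (95% interval −0.51 to 0.59), and its other probes had changes of −0.14 and −0.17.

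**Figure D3:**
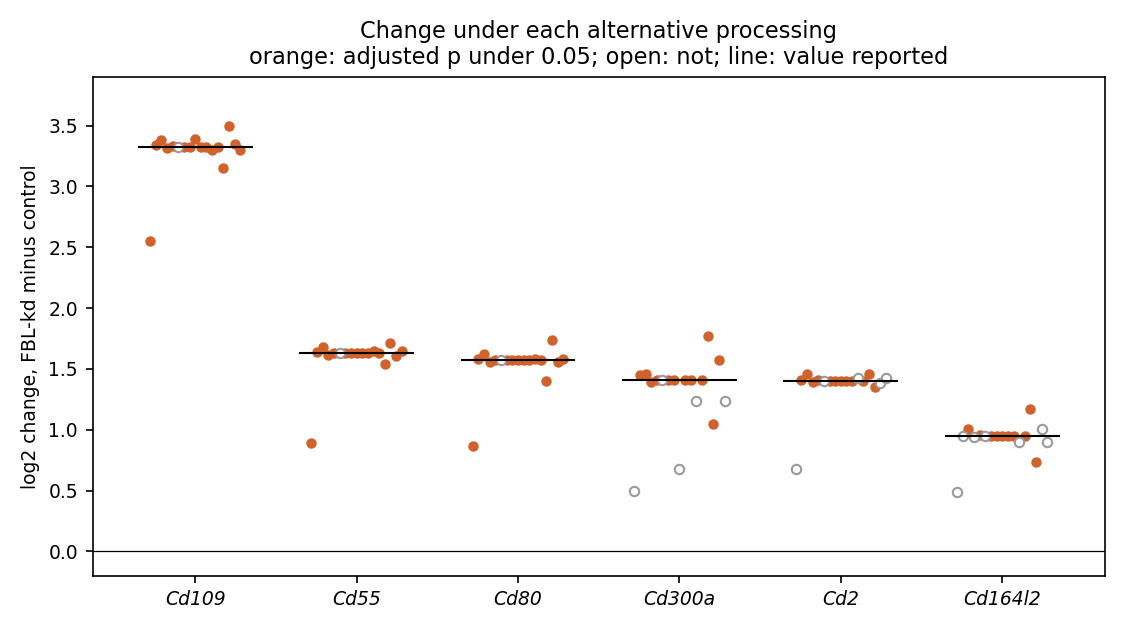
Log2 change (vertical axis) of the 6 CD antigen genes that passed, under each of 17 alternative processings (points; orange where the adjusted p was under 0.05, open where it was not) and as reported (line). Each change stays above 0 throughout, and the lowest point of Cd109, Cd55, Cd80, Cd300a, Cd2 and Cd164l2, at 2.55, 0.89, 0.87, 0.50, 0.68 and 0.49, is the one under normexp. The normexp offset of 50 draws changes of dim probes toward 0.

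The other 10 tested molecules of adhesion and broad expression did not pass in limma, and their changes lay between −0.54 and 0.61. Cd24a, a small mucin-like protein with a lipid anchor that marks many epithelial and stem cells, had levels of 1.07 and 1.35 in the controls and 0.71 and 0.63 in FBL-kd. Its FBL-kd values lay below both controls, with a change of −0.54 (95% interval −1.06 to −0.02, limma adjusted p = 0.227). Cd99, a cell adhesion protein, had 2.96 and 2.19 in the controls and 3.102 and 3.28 in FBL-kd, a change of 0.61 (limma adjusted p = 0.264) that was 0.70 at its other probe. Here the controls differed by more than control 1 differed from either FBL-kd value. Cd320, the receptor that takes up vitamin B12 bound to transcobalamin, had 3.62 and 2.95 against 3.67 and 3.86, a change of 0.48, or 0.58 at its other probe, that did not pass (limma adjusted p = 0.369). Cd38, an enzyme that consumes NAD, changed by 0.37, Cd248 (endosialin) by 0.23, Cd302, a C-type lectin, by −0.34 and Cd34, the sialomucin of blood progenitors, by −0.36, and none of these passed. Cd47, which signals to the SIRP-alpha receptor of phagocytes, had levels of −0.63 and −0.59 in the controls and −0.57 and −0.71 in FBL-kd (change −0.03, 95% interval −0.53 to 0.47). Cd99l2 had overlapping groups at its brightest probe (change −0.06). Its other probe had −4.11 and −4.67 in the controls and −5.29 and −5.59 in FBL-kd (change −1.05). That probe passed where every probe was tested on its own (limma adjusted p = 0.0447 over all probes). It was well above background on both control arrays and on 1 FBL-kd array, so it was tested through the group where it is high.

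Cd44, the hyaluronan receptor, was not tested. At its brightest probe it had −6.41 and −6.58 in the controls and −5.08 and −5.21 in FBL-kd, and it was well above background on 1 FBL-kd array and on no control array, while its other 2 probes were not well above background on any array. Cd200 and Cd93 were not well above background on any array, and Cd177 was so on 1.

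None of the 6 tested tetraspanins passed in limma, 1 having a higher level at an unadjusted p under 0.05. Tetraspanins cross the membrane repeatedly and gather integrins and other partners into domains. Cd81, a partner of integrins, had levels of 6.06 and 5.75 in the controls and 6.56 and 6.66 in FBL-kd, without overlap. Its change was 0.70 (95% interval 0.18 to 1.22, limma adjusted p = 0.118). Cd9, which is needed on the egg for fusion with sperm, had 5.14 and 4.96 in the controls and 4.83 and 4.66 in FBL-kd, a change in the other direction of −0.30 (95% interval −0.81 to 0.21). Cd151, which binds laminin-binding integrins, changed by 0.34, Cd63, a protein of late endosomes and exosomes, by −0.08, Cd82 by −0.12 and Cd37, a tetraspanin of B cells, by 0.06, and only the groups of Cd151 among these 4 did not overlap. Cd53, a tetraspanin of leukocytes, was not well above background on any array. Of 19 tested tetraspanins under other symbols, Tspan1 fell (−0.92 ± 0.24, limma adjusted p = 0.0473) and none rose, with 1 higher at an unadjusted p under 0.05, and their median change was 0.03. None of 9 partner proteins passed in limma, 1 having a higher level at an unadjusted p under 0.05, and Epcam (0.08) and Itgb4 (0.75, adjusted p = 0.138) were the brightest of them.

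**Figure D4:**
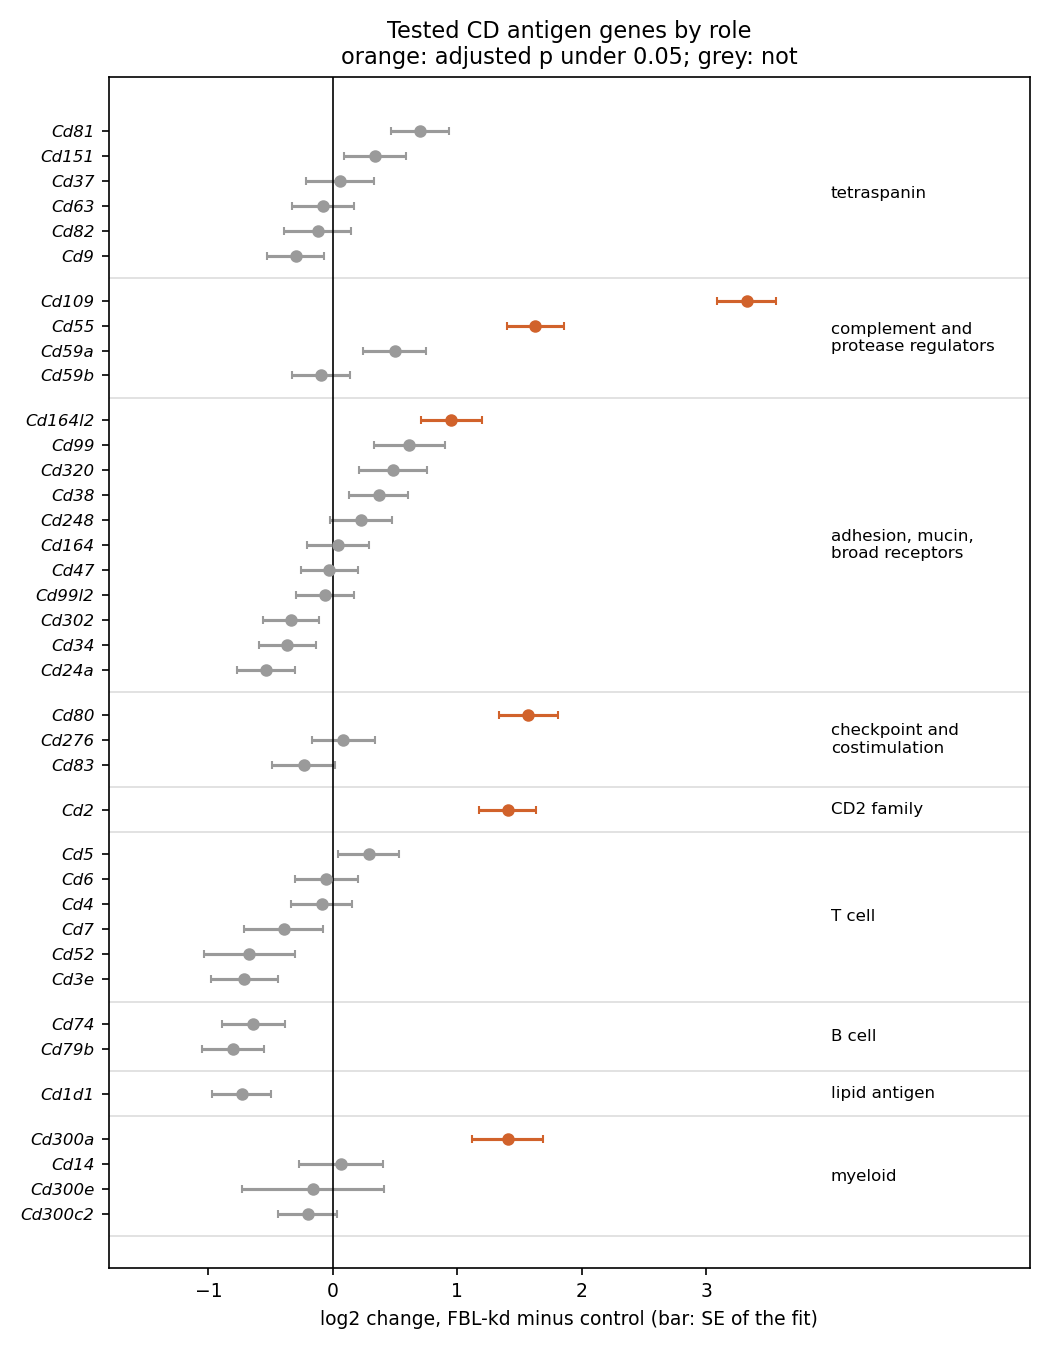
Log2 change (FBL-kd minus control, horizontal axis; bars, SE of the fit; n = 2 per group) of 38 of the 39 CD antigen genes tested, grouped by role, orange where the adjusted p was under 0.05. The 6 that passed lie in 5 of the 9 role groups drawn, and the tetraspanin, T cell, B cell and lipid antigen groups hold none.

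Surface molecules of T cells, parts of the T cell receptor among them, were measured in part. None of 6 tested passed in limma, 1 having a lower level at an unadjusted p under 0.05. Cd3e, a signalling chain of the receptor, had levels of −2.15 and −1.48 in the controls and −2.51 and −2.54 in FBL-kd, with a change of −0.71 (95% interval −1.31 to −0.11, limma adjusted p = 0.166). Its partner chains Cd3d and Cd3g and the activation marker Cd69 were not well above background on any array, and Cd247, the zeta chain, was so on FBL-kd 2 alone, at −5.03 beside −7.77, −8.28 and −8.43 on control 1, control 2 and FBL-kd 1. Cd52, a very short protein with a lipid anchor, had controls far apart at −2.71 and −3.99 and FBL-kd values of −3.94 and −4.10 (change −0.67, limma adjusted p = 0.347). Cd7 (−0.40), Cd4 (−0.09), the scavenger-receptor-like Cd6 (−0.05) and Cd5 (0.29) had overlapping groups. Cd8a was well above background on 1 FBL-kd array.

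None of the 3 tested B cell genes passed in limma, with 2 lower at an unadjusted p under 0.05. Cd79b, a signalling chain of the B cell receptor, had 0.03 and −0.43 in the controls and −1.02 and −0.99 in FBL-kd, with both FBL-kd values below both controls. Its change was −0.80 ± 0.25 (95% interval −1.35 to −0.25, limma adjusted p = 0.0921), and it passed in 6 of 17 alternatives, normexp among them (−0.73, adjusted p = 0.0413). Cd74, the invariant chain that guides MHC class II, had −1.40 and −1.89 against −2.36 and −2.20, a change of −0.64 (limma adjusted p = 0.186) that was −0.12 under normexp. Cd22, Cd72 and Cd180 were not well above background on any array, and Cd79a, the partner of Cd79b, was so on 1 array of each group. Among 11 tested signalling genes of the B and T cell receptors, 2 had a higher and 4 a lower level at an unadjusted p under 0.05 in limma. Zap70, the kinase that reads phosphorylated receptor chains, rose (1.15 ± 0.28, limma adjusted p = 0.0379). The transcription factor Ebf1 was called lower (−1.18 ± 0.29, limma adjusted p = 0.0397). Ebf1 was well above background on both control arrays and on 1 FBL-kd array, so it was tested through the group where it is high. Its change was −0.76 within slide 1 and −0.35 under normexp, where its call ended (adjusted p = 0.513). The call of Zap70 ended with quantile normalization (adjusted p = 0.0726), and its change was 1.09 within slide 1.

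Cd1d1, which presents lipids to natural killer T cells, had levels of 1.05 and 1.22 in the controls and 0.56 and 0.24 in FBL-kd. Both FBL-kd values were below both controls, and the change was −0.73 (95% interval −1.26 to −0.20, limma adjusted p = 0.109). Of the other tested myeloid genes, Cd14, a coreceptor for bacterial lipopolysaccharide, had a change of 0.07 and Cd300c2 one of −0.20. Cd300e, an activating receptor of the same family as Cd300a, had controls at −2.59 and −4.95 and FBL-kd values of −3.999 and −3.86, so that both FBL-kd samples lay between the controls (change −0.16 ± 0.57). Without control 1 its change was 1.02 and without control 2 it was −1.34, and each passed in limma. Cd163l1 and Cd5l were well above background on 2 arrays each. Cd33, Cd36, Cd163, Cd207 and the 5 measured Cd209 genes were not well above background on any array, and neither were Cd27 and Cd70 of the tumour necrosis factor family.

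In all, 38 of the 79 CD antigen genes with a probe were well above background on all 4 arrays, 9 on 1 to 3 arrays and 32 on none. The 39 tested are 49.4% of the 79, while 75.3% of all genes with a symbol were tested. Of 9 blood cell markers with a probe, 5 (Ptprc, Spi1, Itgam, Lyz2 and Runx1) were not well above background on any array. The summed linear signal of the 4 that were tested, in units of the 75th percentile, came to 5.57 and 3.64 for the control samples and to 5.51 and 5.98 for FBL-kd, and none of them passed in limma, with 0 at an unadjusted p under 0.05 in either direction. The brightest, Coro1a and Laptm5, had changes of 0.23 and 0.51. Of 8 endothelial markers 2 (Cdh5 and Emcn) were below that level, and the 5 tested summed to 17.4 and 12.0 in the controls and 18.6 and 20.3 in FBL-kd, with Kdr, the receptor of VEGF, rising (1.19 ± 0.23, limma adjusted p = 0.0113). At an unadjusted p under 0.05, 3 of these 5 were higher and 0 lower, the median change was 0.73, and most of the sum came from Egfl7 (change 0.42). Among the 3, Sox17 (change 0.79) was well above background on 1 control array and both FBL-kd arrays. It was therefore tested through the group where it is high. Egfl7 and Sox17 were named after their values were seen. Of 8 fibroblast markers 3 (Col3a1, Dcn and Postn) were below it and the 4 tested summed to 7.16 and 4.58 against 3.57 and 3.92, and none passed in limma, with 1 lower at an unadjusted p under 0.05. That gene, Thy1, the brightest, gave most of the sum and had a change of −0.76, while the other 3 had changes between 0.17 (Pdgfrb) and 0.46 and the median was 0.21. The part of such cells in these results was not tested, and in bulk samples fewer cells of a type cannot be told apart from less RNA per cell.

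Of 37 tested genes of stem cells and epithelium that have a CD number but another symbol, 7 were called higher and 1 lower in limma, with a median change of −0.12. At an unadjusted p under 0.05, 9 were higher and 8 lower. Eng, endoglin (CD105), another TGF-beta coreceptor, had levels of 0.95 and 0.29 in the controls and 2.66 and 2.56 in FBL-kd and rose by 1.99 ± 0.27 (adjusted p = 0.00168). Fas (CD95), a death receptor, rose by 1.77 (0.88 under normexp), and Fgfr4 (CD334), a fibroblast growth factor receptor, by 1.16. Fut4, which makes the CD15 epitope, is among the 7 but was well above background on no control array, so it was tested through the group where it is high. With its control values raised to the lowest level well above background on each array, it was 1.49-fold higher in FBL-kd, a value without an error. Its change under normexp was 0.15 (adjusted p = 0.847). Nt5e (CD73), which makes adenosine outside the cell, was likewise well above background on both control arrays and on 1 FBL-kd array. It was called lower, with a change of −2.20 ± 0.34 (adjusted p = 0.00347) that was −0.76 under normexp. Of 15 tested genes of blood and endothelium with a CD number but another symbol, 3 rose and 1 fell, with a median of 0.32: the integrins Itgb2 (CD18, 1.45) and Itga2b (CD41, 1.30) and Kdr (CD309) rose, and the antibody receptor gene Fcgr3 (CD16) fell by 1.57. Under normexp the calls of Itgb2 (0.44, adjusted p = 0.359), Itga2b (0.53, 0.216) and Fcgr3 (−0.34, 0.530) ended, and Kdr was at 0.75. Within slide 1 the changes of Itga2b and Kdr were 1.25 and 1.23. Another 14 of these 32 genes were not well above background on any array.

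Partners of the antigens moved in both directions. Of 10 tested partners of CD47, CD44, CD24 and CD200, Sirpa, the receptor of CD47, rose by 1.75 ± 0.24 (limma adjusted p = 0.00176), Has2, which makes hyaluronan, by 1.96, and Spp1, osteopontin, fell by 1.19. Of 5 complement regulators under other symbols Serping1, the C1 inhibitor, rose (1.36 ± 0.23, limma adjusted p = 0.00575) and none fell, with 0 lower at an unadjusted p under 0.05. In the alpha-2-macroglobulin family, to which Cd109 belongs, 4 genes besides it were tested, of which complement C4b rose (1.76) and A2m fell (−0.92, limma adjusted p = 0.0492, a change of 0.03 under normexp). Of 11 TGF-beta receptors and coreceptors Eng alone rose and none fell in limma, with 0 lower at an unadjusted p under 0.05. Of the 22 genes of all related lists that passed, 15 passed under normexp, which moved 11 changes by over 1.5 times. Within slide 1, 1 change (that of Ebf1) moved by over 1.5 times.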

How the data were processed

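The CD antigen genes and the gene lists were chosen with earlier results of these data known. Per the file headers, each deposited spot intensity is the authors' background-subtracted and detrended signal from Agilent Feature Extraction 10.7.3.1, with no scaling between arrays. The authors' table of log2 values is shifted to each array's 75th percentile: per array 99.8% of its entries lay within 0.01 of the levels used here plus a constant, as did 106 or 107 of the 109 CD probes. Flagged spots were left out, spots of a probe averaged on the log2 scale and the 75th percentile over probes subtracted; no spot was saturated. Accessions were matched without version to RefSeq (GRCm38.p6), giving 17016 genes a symbol. A gene was read by its brightest tested probe. Groups were compared with limma 3.58.1 in R 4.3.3 (two-sided, Benjamini-Hochberg), checked on simulated data. With 2 arrays against 2, the number of arrays limits the precision, and an exact permutation test cannot go below p = 0.333. Named were Fbl, the CD antigen genes by result, level or role, and up to 4 genes per direction that passed in each list, or its brightest 2 where none passed; exceptions are stated. The 17 alternatives vary background, scaling, filter, probes, variance model, blocks and samples. Normexp used median signals and an offset of 50, which draws the log2 changes of dim probes toward 0. Values of 1 tested CD antigen gene and of 1 related list are not reported here.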

Additional observations from a re-analysis of the deposited data

How the results depend on the processing

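All 6 CD antigen genes that rose had changes above 0 in each of the 17 alternatives. Cd109, Cd55 and Cd80 passed in 16, Cd2 and Cd300a in 12 and Cd164l2 in 10. The number that rose was 3 under normexp and 3 with the slide as a block (equal to slide 1 alone), and 0 with no filter on dim probes, where limma gave 13 members an unadjusted p under 0.05, 0 of all 32940 genes passed and Fbl had a change of −2.42 (adjusted p = 0.106). The number that fell was 1 under normexp (Cd79b), 1 with the filter on all 4 arrays (Cd79b) and 1 with every probe tested (Cd99l2). The Cd99l2 call came from its dimmer probe, which was tested through the group where it is high. With a variance trend 2 fell (Cd1d1 and Cd79b). Where the trend was also robust 3 fell (these and Cd3e) and 8 rose (Cd81 and Cd99 besides the 6). Leaving out 1 sample gave 3 to 12 that rose, 0 to 4 that fell and a median from −0.24 to 0.20; 12 rose and 4 fell without control 1 (median 0.20), 6 and 4 without control 2, 4 and 0 without FBL-kd 1, and 3 and 0 without FBL-kd 2. A fit without 1 sample takes the spread from the other pair and assumes that the lone sample varies alike. Without FBL-kd 1 or FBL-kd 2, and with the slide as a block, all genes had the same SE, 0.456. All genes likewise shared an SE with the replicate block (0.307) and under normexp (0.237). Passes in these fits are counted here but do not reflect the spread of each gene. The change of Cd300e was 1.02 without control 1 and −1.34 without control 2, and that of A2m was 0.0338 under normexp, so that the signs of Cd300e without control 1 and of A2m turned; the cause was not tested. The labels do not say that replicate numbers pair the samples. The deviations of control 1 and FBL-kd 1 from their group means had a correlation of 0.0029 over genes. With 2 samples per group this value cannot decide whether the samples were paired. With the replicate block 6 CD antigen genes rose and 0 fell, and Fbl had a change of −2.42. Over all genes 752 rose and 506 fell, against 381 and 194 with the slide as a block, 659 and 337 with quantile normalization, 1209 and 1047 with a trend and robust variances, 1041 and 834 with the trend alone, 959 and 787 with the replicate block, 2350 and 1728 without control 1, 1091 and 1309 without control 2, and 456 and 328 without FBL-kd 1. The 75th percentile over spots was chosen after seeing the data. The mean spot signal planned for normexp was replaced by the median. Signal over background kept 40 of the 79 genes out of the test.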

Other observations

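Like most genes tested, most CD antigen genes differed more between the 2 controls than between the 2 FBL-kd samples. The median absolute difference over the 39 tested genes was 0.44 between the controls and 0.12 between the FBL-kd samples, and 32 of 39 had the wider gap in the controls, as did 78.1% of all genes tested. Control 1 lay above control 2 for 29 of the 39, against 62.6% of all genes tested. The widest gap between controls was that of Cd300e, from −2.59 to −4.95.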
